A study of Mus musculus with 6 samples.

Results

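The ligand gene Cd200 and its receptor genes Cd200r1, Cd200r2, Cd200r3 and Cd200r4 were followed through the cell types of the aged mouse lung. These 5 genes were taken by symbol from the 31054 features of the count matrices. They were chosen by earlier values from these data, levels by library, cell type and group. Their levels and their differences between the groups are therefore descriptions with no test, and fold changes are given with at most a standard error. The data are droplet-based RNA sequencing of lung cells of 6 male C57BL/6 mice aged 21 months, with 1 library per mouse and 3 mice per group. Mice labelled p16-DTR carried p16-CreERT2, a tamoxifen-activated Cre recombinase driven from the p16 locus, together with R26-LSL-DTR, a diphtheria toxin receptor that Cre switches on. Control mice carried p16-CreERT2 alone. Every mouse of either group received tamoxifen on 5 days, waited 2 weeks, received diphtheria toxin on 5 days and recovered for 2 weeks. Per library 20000 sorted cells lacking CD45 (the pan-leukocyte surface protein) and 9000 bearing it were combined, so the balance of non-immune and immune cells was set by the sort.

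CD200 is a membrane glycoprotein of the immunoglobulin superfamily, found on endothelium, neurons and subsets of lymphocytes. Its receptor CD200R1 carries tyrosines in the cytoplasmic tail that recruit the adaptors DOK2 and DOK1 and, through them, a Ras GTPase-activating protein. This restrains macrophages, mast cells and other leukocytes, and in the lung the pair is best known from alveolar macrophages. The receptors encoded by Cd200r2, Cd200r3 and Cd200r4 have short tails and signal through activating adaptors such as DAP12 (Tyrobp), and whether they bind CD200 has been disputed. CD200R3 is known from basophils and mast cells.

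All 5 genes lie on chromosome 16. In the GENCODE M21 annotation of GRCm38 the receptors form a block on the plus strand, in the order Cd200r1 (44765736 to 44794978), Cd200r4 (44811733 to 44839150), Cd200r2 (44867097 to 44915840) and Cd200r3 (44943678 to 44981380). Cd200 (45382135 to 45409053) lies 400.754 kb further on, on the minus strand. No 60-base word from the last 500 bases of a transcript of 1 member occurred in a transcript of another, so reads from these 3' ends can be told apart. RefSeq promoters (windows of 300 bases around the start, GRCm38.p6) were matched for 4 of the 5 members, the exception being Cd200r1. The promoters of Cd200r3 and Cd200r4 are shown because both genes were found in basophils and the windows share a run of 32 bases, in capitals, and 44 words of 12 bases. The longest run shared by any other pair of the 4 promoters had 9 bases. The promoter of Cd200r2 is shown because this gene stood at its highest levels in the natural killer gate of the p16-DTR libraries. Its capitals mark the letters TCACACCT, a core bound by T-box factors.

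Cd200r3 promoter, chr16:44943428-44943727, plus strand: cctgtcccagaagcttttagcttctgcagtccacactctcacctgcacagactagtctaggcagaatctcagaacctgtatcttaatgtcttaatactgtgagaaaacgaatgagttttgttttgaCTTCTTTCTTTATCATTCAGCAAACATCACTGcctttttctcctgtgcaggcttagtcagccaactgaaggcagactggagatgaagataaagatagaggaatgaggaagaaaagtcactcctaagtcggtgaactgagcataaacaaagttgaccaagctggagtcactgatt

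Cd200r4 promoter, chr16:44820478-44820777, plus strand: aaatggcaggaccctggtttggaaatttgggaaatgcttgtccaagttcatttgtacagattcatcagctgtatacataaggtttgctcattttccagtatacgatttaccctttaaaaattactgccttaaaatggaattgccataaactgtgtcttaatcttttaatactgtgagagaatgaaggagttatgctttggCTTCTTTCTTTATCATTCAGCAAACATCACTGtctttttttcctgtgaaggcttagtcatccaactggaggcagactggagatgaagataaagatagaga

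Cd200r2 promoter, chr16:44866847-44867146, plus strand: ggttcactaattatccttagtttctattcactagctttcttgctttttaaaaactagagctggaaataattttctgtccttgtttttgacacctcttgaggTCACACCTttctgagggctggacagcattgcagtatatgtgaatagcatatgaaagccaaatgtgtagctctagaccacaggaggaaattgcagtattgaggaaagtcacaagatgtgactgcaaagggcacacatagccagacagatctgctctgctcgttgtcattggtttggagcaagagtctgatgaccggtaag

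The RefSeq start of Cd200r4 lies inside the gene as GENCODE draws it. Searched on either strand, TCACACCT was in 1 of the 4 promoters, that of Cd200r2, and in 1.28% of all 32851 promoters of the same length. AGATAA, letters bound by GATA factors, was in the promoters of Cd200, Cd200r3 and Cd200r4 and in 11.2% of all promoters. TGTGGT, bound by RUNX factors, was in that of Cd200r2 and in 16.8% of all. ACCGGAAGT, bound by ETS factors, was in none of the 4 and in 1.10% of all. These are matches of letters and say nothing of binding.

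The libraries held 13482 to 17332 barcodes and 254200305 to 344421685 UMIs (unique molecular identifiers, which count each captured transcript once). Cell types were set by gates, each a minimum number of detected markers together with the absence of markers of other lineages, and no member was used as a marker. Of 91156 retained cells, 63988 fell into 1 of 34 gates, 19979 into none and 7189 into several. Levels are given as CPM, the UMIs of a gene per 1000000 UMIs of the same gate and library. Cdkn2a, the gene of p16, stood at 7.10, 8.57 and 7.31 in the p16-DTR libraries and at 1.15, 2.60 and 2.84 in the controls, so it was not lower in the libraries labelled p16-DTR. The tdTomato feature had 89, 74 and 94 UMIs in the p16-DTR libraries and none in the controls. Because Cdkn2a goes against the purpose of the allele, all directions hold for the libraries as labelled.

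Cd200 was highest in the endothelium. Venous endothelium led with 876 ± 77.6 CPM (SD, n = 6). Arterial endothelium followed with 399 ± 33.8 and general capillary endothelium with 326 ± 37.1. Venous cells were above arterial cells in each of the 6 libraries, and their ranges did not overlap. Arterial cells were above general capillary cells in each library too, although the ranges over libraries overlapped. Aerocytes, the capillary cells specialised for gas exchange, had 181 ± 7.94 and lymphatic endothelium 149 ± 19.1. Pooled within a library, the endothelial gates had 354 ± 34.1 CPM and the myeloid gates (macrophages, monocytes, neutrophils and conventional and migratory dendritic cells, without basophils) 5.11 ± 1.89 (SD, n = 6). The difference in log2(CPM + 1) was 5.91 ± 0.48 and had the same sign in 6 of 6 libraries. Because levels by cell type were among the values that chose the members, such differences between cell types carry no test.

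Outside the endothelium, the mesothelium, which lines the lung surface, had 236 ± 26.3 CPM of Cd200. Alveolar type 2 cells, which make surfactant, had 171 ± 20.2, a range that overlapped those of aerocytes and lymphatic endothelium. The platelet or megakaryocyte gate, with 15 to 298 cells per library, had 117 ± 65.5. Among immune cells B cells had 37.0 ± 5.46 and CD4 T cells 26.4 ± 7.90. The 49 migratory dendritic cells, 4 to 12 per library, reached 83.9 to 520.4, too few cells for a place in the order. Classical monocytes, neutrophils and natural killer cells had at most 2.15, 2.10 and 3.19 in any library.

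Shares of cells with a Cd200 UMI were set beside a cell type that should lack it. After each cell was thinned to 5000 UMIs, 94.6% ± 1.08 of venous endothelial cells in the p16-DTR libraries and 93.8% ± 1.89 in the controls had one (SD, n = 3 each). Neutrophils, taken as cells that should lack the gene, had 1.21% ± 0.284 and 0.993% ± 0.580. Before thinning the venous shares were 98.8% and 99.2% at median depths of 17392 and 17402.5 UMIs, and the neutrophil shares 2.10% and 1.65% at 9550 and 9097.

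**Figure D1:**
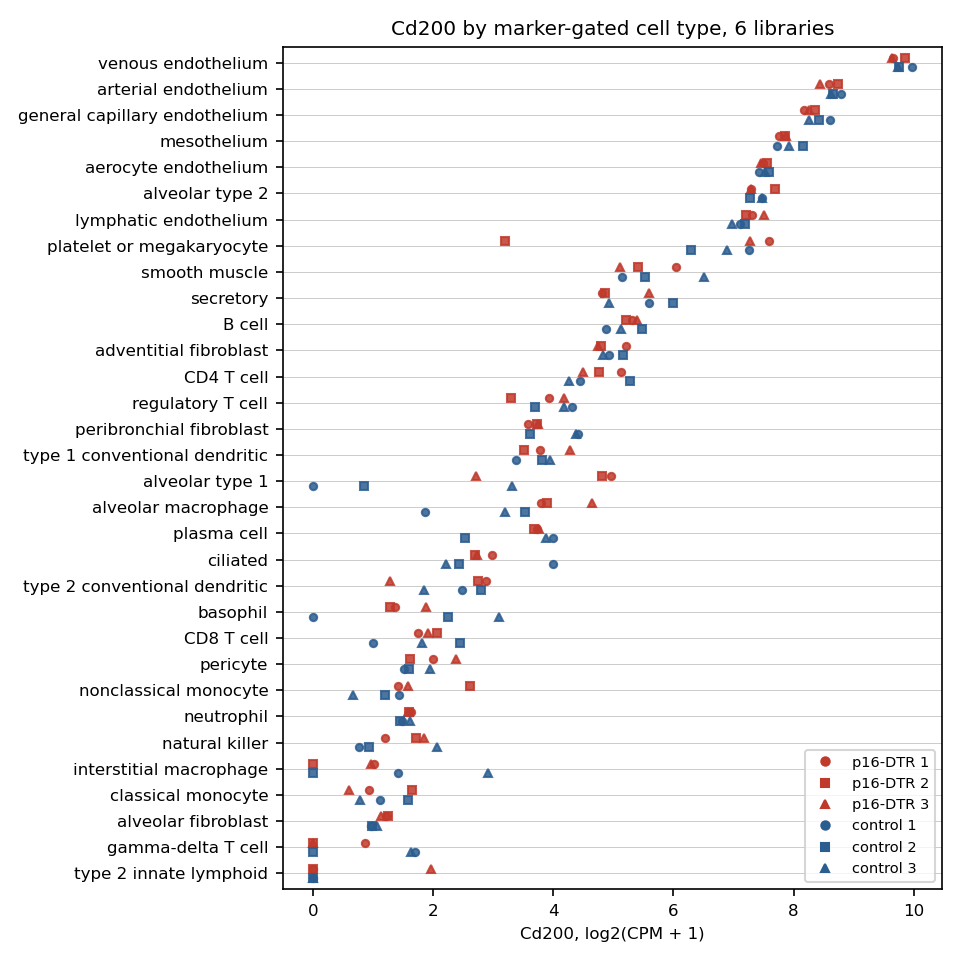
Cd200 in 32 of the 34 gates (migratory and plasmacytoid dendritic cells, with few cells, are left out), as log2(CPM + 1), 1 point per library, gates sorted by their mean. The venous, arterial and general capillary gates lead, and p16-DTR and control points are mixed in them.

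Cd200 was compared between the groups in its main cell types. In venous endothelium the p16-DTR libraries had 808, 927 and 798 CPM and the controls 1004, 867 and 854, ranges that overlapped. The log2 fold change of p16-DTR against control was -0.085 ± 0.096 (SE). In general capillary cells, which held 41.5% of all Cd200 UMIs of the p16-DTR libraries and 35.6% of those of the controls, it was -0.13 ± 0.090 (SE). Cd200 passed the filter on low counts in 19 gates.

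Lymphatic endothelium is named after its values were seen. There the p16-DTR libraries had 157, 147 and 181 CPM and the controls 138, 145 and 125, with no overlap, an order shown by 9.47% of genes in this gate. The fold change was 0.24 ± 0.11 on the log2 scale (SE). Alveolar fibroblasts had 1.16 ± 0.172 CPM over the 6 libraries (SD), below the 1.95 ± 0.158 of neutrophils, which were taken as cells that should lack the gene. After thinning 0.638% of them had a UMI, against 1.15% of neutrophils, so this level is at background and no group difference is read from it.

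In alveolar type 1 cells, the thin cells of the gas exchange surface, Cd200 did not pass the filter. The p16-DTR libraries held 19, 15 and 3 UMIs of it there and the controls 0, 1 and 13, from 23 to 55 cells per library. These counts overlapped between the groups. The log2 fold change was 2.43 ± 0.52 (SE) without the filter. With control 3 left out Cd200 passed the filter, at 5.06 ± 0.99 (SE), so the size rests on that library. The gate was named after its values were seen.

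Over the 24 gates tested apart from natural killer cells, edgeR called 1298 of 259317 gene-and-gate tests at an adjusted p under 0.05, or 0.501%. The members that passed the filter made up 35 of these tests, 19 of Cd200, 9 of Cd200r1 and 7 of Cd200r4, while Cd200r2 and Cd200r3 passed it in none of the 24 gates. The median log2 fold change was 0.085 over these 35 and 0.00019 over all tests, and nothing is read from it.

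**Figure D2:**
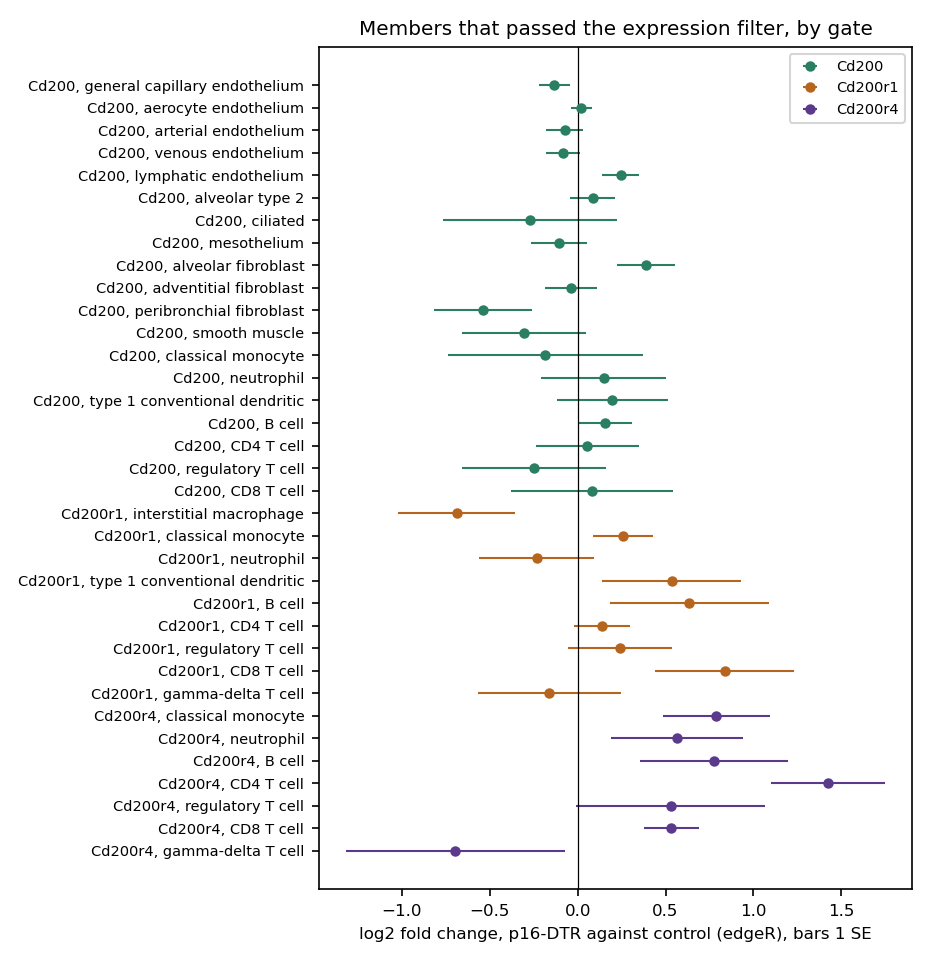
edgeR log2 fold change of p16-DTR against control libraries for the 35 member-and-gate pairs that passed the filter, 3 libraries per group, bars 1 standard error. Cd200 lies between -0.54 and 0.39, and Cd200r4 reaches 1.42 in CD4 T cells.

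Cd200r1, the inhibitory receptor, was highest in type 2 innate lymphoid cells, tissue lymphocytes that make type 2 cytokines. They had 249 ± 53.2 CPM (SD, n = 6), from 96 cells in all. Basophils, granulocytes of type 2 immunity, had 141 ± 26.6. Alveolar macrophages had 95.9 ± 30.3 and type 2 conventional dendritic cells 66.8 ± 9.29. Type 2 innate lymphoid cells were above basophils in 6 of 6 libraries with no overlap of the ranges, whereas basophils and alveolar macrophages kept their order in 6 of 6 libraries but overlapped. Regulatory T cells had 43.4 ± 10.6, CD4 T cells 29.3 ± 4.26 and interstitial macrophages 22.3 ± 8.24. Classical monocytes had 9.18 ± 1.52 and neutrophils 9.61 ± 3.16.

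The pooled myeloid gates, again without basophils, had 11.2 ± 1.63 CPM of Cd200r1 and the endothelial gates 0.0759 ± 0.0450 (SD, n = 6). On the log2(CPM + 1) scale the difference was 3.49 ± 0.21, with the myeloid gates higher in 6 of 6 libraries. With basophils the myeloid level was 15.4 ± 2.61 CPM. After thinning, 58.7% of type 2 innate lymphoid cells had a Cd200r1 UMI (54 of 92 cells). General capillary cells, which should lack it, had 0.0445% (7 of 15735). Without thinning the innate lymphoid shares were 85.4% in the p16-DTR libraries and 71.2% in the controls, at median depths of 14711 and 12743.5 UMIs, and the capillary shares 0.196% and 0.0679% at 15801 and 15468.

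The group differences of Cd200r1 had opposite signs in different gates. In interstitial macrophages it stood at 8.12, 24.1 and 17.9 CPM in the p16-DTR libraries and at 31.8, 25.5 and 26.1 in the controls, from 102 and 57 UMIs. All 3 p16-DTR libraries were lower there, as for 5.59% of genes tested, at -0.69 ± 0.33 on the log2 scale (SE). The thinned shares of positive interstitial macrophages overlapped, at 7.46% ± 0.970 against 7.75% ± 3.84 (SD, n = 3 each). Type 2 conventional dendritic cells, too few in a library for a test, had 59.6, 52.7 and 66.0 against 73.8, 71.9 and 77.1, again with every p16-DTR library lower, as for 9.91% of genes with at least 10 UMIs in the gate. In CD8 T cells the sign was the opposite, at 0.84 ± 0.40 (SE), and the groups overlapped. Basophils had 136, 147 and 176 against 98.6, 130.1 and 159.7, which overlapped, the last value coming from 9 cells.

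**Figure D3:**
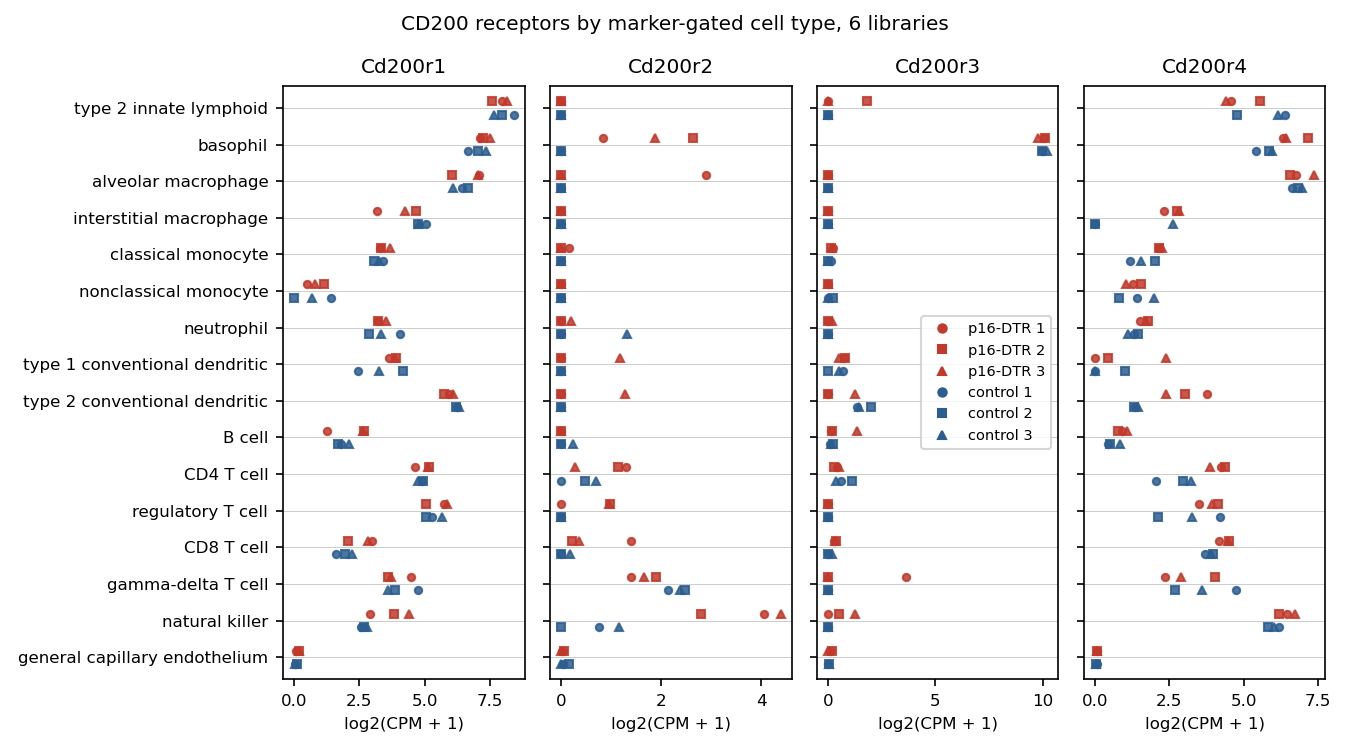
The 4 receptors in 15 immune gates and general capillary endothelium, as log2(CPM + 1), 1 point per library. Cd200r1 and Cd200r4 are spread over several immune gates, Cd200r3 is near 10 in basophils and below 4 elsewhere, and Cd200r2 is highest in the natural killer gate of the p16-DTR libraries.

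Cd200r2 had the fewest UMIs of the 5 members, 412 in all retained cells. The natural killer gate holds cytotoxic lymphocytes with at least 5 of 9 markers such as Ncr1 and Klrb1c and at most 1 of 4 T cell genes. There the p16-DTR libraries had 15.6, 5.95 and 19.9 CPM, from 36, 13 and 69 UMIs. The control libraries had 0.698, 0 and 1.23, from 1, 0 and 5 UMIs, and the 0 of control 2 allows up to 2.72. All 3 p16-DTR libraries were above all 3 controls, which held for 8.8% of genes tested in this gate, where 0.711% were called. Cd200r2 passed the filter there through the p16-DTR libraries, with 118 UMIs against 6, so nothing is read from that share. The log2 ratio of the group means was 4.43, and it was 5.31 without control 3. This is the contrast that chose the gene, so it carries no test.

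The UMIs sat in few cells. A Cd200r2 UMI was found in 11 of 180, 4 of 169 and 16 of 244 natural killer cells of the p16-DTR libraries and in 1 of 96, 0 of 70 and 3 of 246 of the controls, where the 0 allows a share of up to 4.29%. In the p16-DTR libraries 8, 3 and 13 of the positive cells had at least 2 UMIs, and the highest cells had 9, 6 and 11. After thinning the share was 3.95% ± 1.78 against 0.140% ± 0.243 (SD, n = 3 each), at gate medians of 13232 and 15339.5 UMIs. Without thinning it was 5.01% against 0.754%. B cells, which should lack the gene, had 0 of 4808 thinned cells, which allows up to 0.0624%, at medians of 14363.5 and 13060.

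Pooled over the p16-DTR libraries, the 31 positive cells of the gate differed from the 562 negative ones in lineage genes. No library had the 20 positive cells that a comparison within libraries required, so this description has no replicates, and its genes were named after their values were seen. Group 1 innate lymphoid cells are natural killer cells and their tissue-resident relatives. The panel called group 1 here holds genes of the resident relatives, and it summed to 1079 against 141 CPM. Cxcr6, a chemokine receptor of resident lymphocytes, had 279 against 7.05, and Tnfsf10, the death ligand TRAIL, 161 against 12.5. Itga1, the integrin CD49a, had 373 against 62.5 and Tmem176b 194 against 14.1. Ikzf2, the fifth panel gene, was closer at 71.5 against 44.9.

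Genes of mature circulating natural killer cells went the other way. All 6 genes of that panel were lower in Cd200r2-positive cells, among them Itgam (CD11b) at 27.7 against 201 CPM, Cx3cr1 at 18.4 against 125 and Zeb2 at 334 against 1014. The immature natural killer panel summed to 835 against 542. Its genes Cd27 (148 against 47.5), Kit (87.6 against 26.3) and Ltb (196 against 29.5) were higher. Tcf7 (55.3 against 67.9) and Emb (348 against 371) were lower. Eomes, a T-box factor of natural killer cells, had 89.9 against 317, while Ncr1, an activating receptor of the lineage, was detected in 31 of 31 positive cells. Of the T cell genes, Cd3e and Cd3d had no UMI in the positive cells Cd3g had 23.1 against 3.46 and Trac 9.22 against 14.2. Tcrg-C4, a constant segment of the gamma T cell receptor, had 178 against 13.2 and was detected in 18 of the 31 positive cells. The part of T cell RNA in the Cd200r2 values was not tested. Cd200r1 went with Cd200r2: it was detected in 21 of the 31 positive and 24 of the 562 negative cells, at 161 against 5.72 CPM. Cd200r4 was detected in 23 of 31 and 302 of 562 cells. Cd200r3 was found in 4 of the positive cells and in 0 of the negative ones, which allows up to 0.534%.

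**Figure D4:**
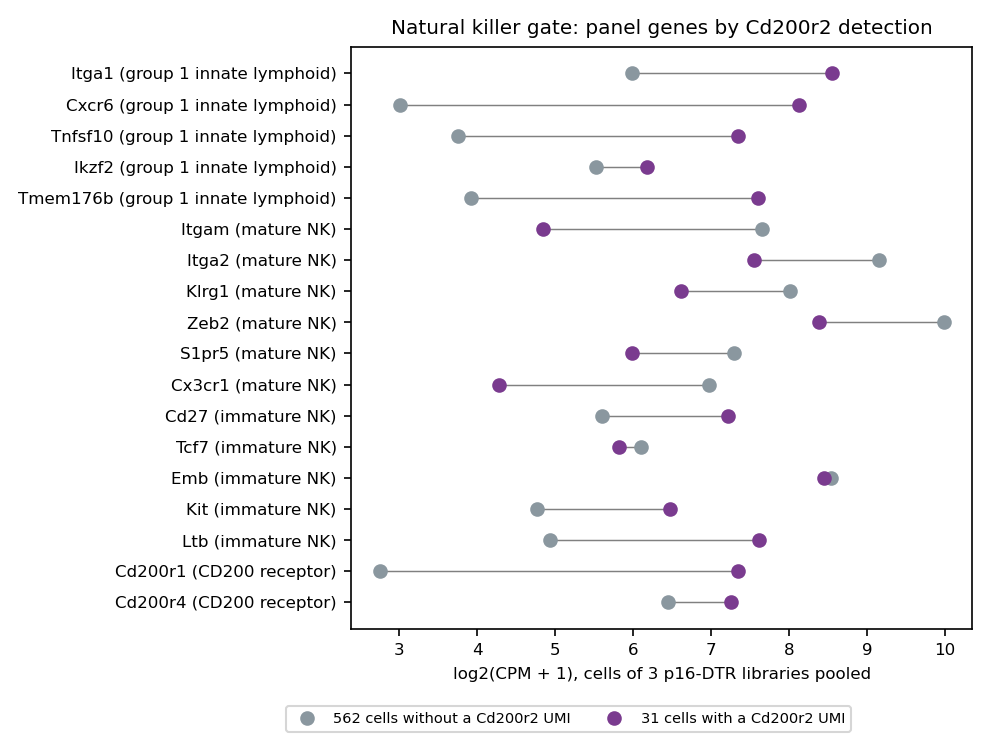
CPM, as log2(value + 1), of panel genes and receptors in the 31 Cd200r2-positive and 562 Cd200r2-negative cells of the natural killer gate, 3 p16-DTR libraries pooled, with no replicate error. Genes of the group 1 panel and Cd200r1 are higher in positive cells, and mature natural killer genes are lower. Of the immature natural killer genes, Cd27, Kit and Ltb are higher and Tcf7 and Emb lower.

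The gate was then split by the group 1 panel, a split chosen after this panel was seen to be higher in the Cd200r2-positive cells. No member defined the split. The p16-DTR cells are the same in both descriptions, so the split is no independent support for the first. Cells with at least 3 of the 5 panel genes made up 6.11%, 4.73% and 9.02% of the gate in the p16-DTR libraries (11, 8 and 22 cells). In the controls they made up 2.08%, 1.43% and 3.25% (2, 1 and 8 cells), so the shares did not overlap. Summed over the whole gate, the panel genes did overlap, at 159, 173 and 226 CPM against 126, 149 and 162. In the p16-DTR libraries the cells with at least 3 panel genes held 75.4% of the Cd200r2 UMIs of the gate and 79.6% of the Cd200r1 UMIs, but 12.7% of the Cd200r4 UMIs. In the controls they held 33.3%, 43.2% and 1.42%, on totals of 6, 37 and 424 UMIs. Levels within these few cells are also a description. Cd200r2 had 182, 64.6 and 143 CPM there in the p16-DTR libraries and 0, 0 and 13.4 in the controls. Pooled by group, Cd200r1 had 140.0 against 80.5 and Cd200r4 142 against 30.2, with 41 and 11 cells behind them. In the remaining cells Cd200r2 stood at 4.62, 2.89 and 4.23 CPM in the p16-DTR libraries and at 0.713, 0 and 0.765 in the controls. The groups did not overlap there, as for 7.81% of genes with at least 10 UMIs in these cells, on 29 and 4 UMIs, and the log2 ratio of means was 2.99.

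For Cd200r1 the groups were apart over the whole gate and overlapped in the remaining cells. Over the whole gate it had 6.50, 13.3 and 19.9 CPM in the p16-DTR libraries and 4.89, 5.44 and 5.90 in the controls, with no overlap, as for 8.8% of genes tested, and a log2 ratio of 1.29. In the cells with under 3 panel genes it had 0.923, 0.963 and 6.19 against 2.14, 5.54 and 3.06. There the groups overlapped, on 23 and 21 UMIs, of which the 6 of control 2 came from 1 cell. The log2 ratio of means was -0.41 with control 2 and 0.050 without it, so no direction is read from it. Other panels of the gate also differed between the groups. The mature natural killer panel summed to 2186 to 2294 CPM in the p16-DTR libraries and 1710 to 1880 in the controls, and the immature panel to 428 to 797 and 915 to 1289. Myeloid genes summed to 145 to 166 and 132 to 142, and endothelial genes to 69.3 to 103 and 111 to 124. The gate's own markers summed to 15607 to 16602 and 12514 to 14405, and markers of regulatory T cells to 38.5 to 81.4 and 83.4 to 119. The groups did not overlap in these 6 of 14 panels, whereas the T cell panel overlapped and reached 27.7 in a p16-DTR library and 17.5 in a control. Their part in the receptor values was not tested.

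**Figure D5:**
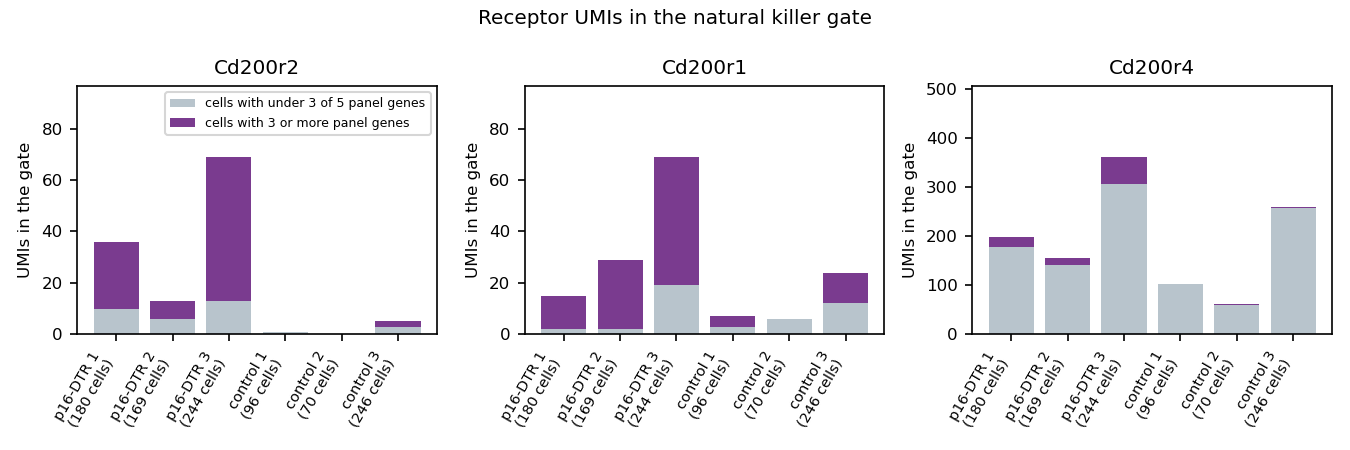
UMIs of Cd200r2, Cd200r1 and Cd200r4 in the natural killer gate of each library. Cells with at least 3 of the 5 group 1 panel genes are set apart from the rest. Bars start at 0 and each plot has its own scale. Most Cd200r2 and Cd200r1 UMIs of the p16-DTR libraries lie in the cells with the panel genes, and most Cd200r4 UMIs in the rest.

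Cd200r2 had few UMIs in every other gate and in the natural killer gate of the controls. Gamma-delta T cells, lymphocytes with the alternative T cell receptor, had 1.64, 2.73 and 2.14 CPM in the p16-DTR libraries and 3.38, 4.55 and 4.20 in the controls. In the controls this gate was above the natural killer gate in each library. All 3 p16-DTR libraries were lower than the controls, on 8 and 14 UMIs. Cd200r2 did not pass the filter in this gate, and 5.44% of the genes that did pass it showed that order. After thinning the share of positive cells had the opposite sign, 1.38% ± 1.41 against 0.882% ± 0.778 (SD, n = 3 each), from 5 positive cells. Without thinning it was 2.56% against 5.71%. CD8 T cells had 0.699 ± 0.834 CPM in the p16-DTR libraries and 0.0469 ± 0.0813 in the controls (SD, n = 3 each), on 11 and 1 UMIs. Every p16-DTR library was above every control there, as for 8.66% of genes tested, though Cd200r2 did not pass the filter. Basophils had 14 UMIs in the p16-DTR libraries and 0 in the controls, which allows up to 2.02 CPM over the pooled control gate. The basophil gate had 1.46 ± 2.14 and the other CD45-positive gates 0.512 ± 0.416 (SD, n = 6), with basophils higher in 2 of 6 libraries. Cells in no gate held 157 of the 412 UMIs, 110 in the p16-DTR libraries and 47 in the controls. These UMIs lay in 71 cells, and 52 of these cells had at least 3 of 4 T cell genes.

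Cd200r3 was found in basophils and hardly elsewhere. The basophil level was 1082, 1097 and 898 CPM in the p16-DTR libraries and 1013, 1022 and 1201 in the controls, with a mean of 1052 ± 102 (SD, n = 6). The groups overlapped, and the log2 ratio of their means was -0.073. The other CD45-positive gates pooled had 0.276 ± 0.176, a difference of 9.69 ± 0.30 on the log2(CPM + 1) scale, with basophils higher in 6 of 6 libraries. After thinning 93.5% ± 2.80 and 94.1% ± 4.78 of basophils in the p16-DTR and control libraries had a UMI (SD, n = 3 each), against 0.0624% of B cells. Without thinning the basophil shares were 97.0% and 97.9% at median depths of 15734 and 13308.5 UMIs.

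Over a whole library the level of Cd200r3 followed the share of basophils. Over all retained cells it had 5.60, 8.88 and 2.95 CPM in the p16-DTR libraries and 1.77, 3.51 and 0.732 in the controls. Basophils made up 0.623%, 0.743% and 0.371% of retained cells in the p16-DTR libraries and 0.267%, 0.445% and 0.0561% in the controls. The 6 libraries stood in the same order in both measures, and the groups overlapped in both. The basophil gate held 84.9% of the Cd200r3 UMIs of the p16-DTR libraries and 89.0% of those of the controls. A further 698 UMIs lay in cells of no gate, 597 of them in 51 cells with at least 5 basophil markers.

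Cd200r4 was spread over innate and lymphoid cells. Alveolar macrophages had 116 ± 26.2 CPM, basophils 77.3 ± 35.7, natural killer cells 75.5 ± 17.4 and type 2 innate lymphoid cells 44.6 ± 26.5 (SD, n = 6). The ranges of these neighbours in the order overlapped. CD8 T cells had 16.8 ± 3.98, regulatory T cells 11.7 ± 5.33, CD4 T cells 11.6 ± 6.56 and gamma-delta T cells 11.4 ± 8.25. Classical monocytes had 2.81 ± 0.987 and B cells at most 1.11. Pooled, the myeloid gates without basophils had 3.58 ± 0.862 and the lymphoid gates 11.9 ± 4.32, with the myeloid gates lower in 6 of 6 libraries (difference -1.44 ± 0.43 on the log2(CPM + 1) scale). With basophils added, which took the UMIs from 590 to 1126, the myeloid level was 6.52 ± 3.98 and the difference -0.84 ± 0.64, with the myeloid gates higher in 1 of 6 libraries. Alveolar macrophages, the highest gate, were 7 to 18 cells per library.

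In CD4 T cells Cd200r4 had 17.9, 19.7 and 13.7 CPM in the p16-DTR libraries and 3.17, 6.79 and 8.30 in the controls. Every p16-DTR library was above every control, which held for 11.4% of genes tested in this gate. The log2 fold change was 1.42 ± 0.33 (SE), and 1.14 to 1.72 when 1 library was left out in turn. After thinning, 9.68% ± 1.66 of CD4 T cells of the p16-DTR libraries and 2.62% ± 0.498 of the controls had a UMI (SD, n = 3 each), against 0.208% of B cells. Without thinning the shares were 16.5% and 7.50% at median depths of 13863 and 15988 UMIs.

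The Cd200r4-positive CD4 T cells were described by pooling cells of a group, with no replicates, and the genes named were chosen after their values were seen. In the p16-DTR libraries 118 of 721 cells were positive. They had more Itga1 (138 against 49.0 CPM), Ccl5, a chemokine of effector T cells (2411 against 797), and Nkg7, a cytotoxic granule gene (571 against 245). Tcf7, a factor of naive and memory T cells, was lower at 217 against 462. Cd200r1 had 56.2 against 25.9, and the ligand Cd200 4.53 against 31.1, so positive cells had more Cd200r1 and less Cd200. Of 835 control cells 65 were positive, with Itga1 at 75.5 against 14.9, Cd200r1 at 41.8 against 26.1 and Cd200 at 10.8 against 27.1. In the group 1 panel that holds Itga1, Cxcr6 and Tnfsf10 were higher in positive cells of both groups. Ikzf2 was lower in both (164 against 249 and 106 against 181), and Tmem176b was lower in the controls (281 against 322). The panel sums were closer, at 681 against 544 in the p16-DTR libraries and 827 against 743 in the controls. The mature natural killer panel ran in opposite directions in the groups. It summed to 542 against 265 CPM in positive and negative cells of the p16-DTR libraries and to 285 against 323 in those of the controls, and its member Zeb2 to 369 against 184 and 197 against 246. Among genes found in at least 50% of positive control cells the ratios were highest for Hist1h4d, a histone gene (256 against 90.0), and Tubb4b, a tubulin (173 against 70.1), whereas Lyz2 led in the p16-DTR cells.

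Lyz2, a macrophage and neutrophil gene, had 3163 against 890.2 CPM in the positive and negative p16-DTR cells. The myeloid panel over the whole CD4 gate was 2635, 2247 and 882 in the p16-DTR libraries and 1221, 1104 and 1205 in the controls, so the groups overlapped and p16-DTR 3 was the lowest library. Of 14 panels summed in this gate, 4 did not overlap between the groups. Endothelial genes summed to 218 to 236 in the p16-DTR libraries and 278 to 322 in the controls, and CD45 panel genes to 3864 to 4273 and 3727 to 3771. The immature natural killer panel summed to 2045 to 2451 and 2492 to 2907, and markers of type 2 innate lymphoid cells to 943 to 1213 and 1305 to 1515. The part of these genes in the Cd200r4 value was not tested.

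Cd200r4 was higher in the p16-DTR libraries in further gates. CD8 T cells had 16.8, 21.9 and 21.2 CPM against 12.1, 14.6 and 14.1, with no overlap, a pattern that 8.66% of genes in this gate showed. The log2 fold change was 0.53 ± 0.16 (SE). Classical monocytes had 3.43, 3.45 and 3.72 against 1.27, 3.06 and 1.92, again with no overlap, which 5.99% of genes there showed, at 0.79 ± 0.31 (SE). Their thinned shares of cells with a UMI overlapped, at 1.60% ± 0.601 against 1.08% ± 0.699 (SD, n = 3 each). Neutrophils, at a similarly low level, had 2.20 ± 0.306 against 1.47 ± 0.267 CPM (SD, n = 3 each), on 42 and 20 UMIs. The log2 fold change there was 0.56 ± 0.38 (SE). The groups did not overlap in neutrophils either, an order with no share of genes to set beside it. Gamma-delta T cells ran the other way, at -0.70 ± 0.62 (SE).

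Natural killer cells and basophils, left without a test, and a gate with few cells had these values for Cd200r4. Natural killer cells had 86.2, 71.4 and 104 CPM against 71.9, 55.3 and 63.9, where p16-DTR 2 lay just below control 1. Basophils had 77.9, 143 and 84.7 against 41.2, 56.3 and 60.8, with no overlap, as for 8.83% of genes with at least 10 UMIs in the gate, p16-DTR 2 being far above the rest. The log2 ratios of the means were 0.45 and 0.95. Type 2 conventional dendritic cells, too few for a test, had 12.8, 7.13 and 4.30 against 1.54, 1.50 and 1.73, on 14 and 4 UMIs. Every p16-DTR library was above every control there, as for 3.24% of genes with at least 10 UMIs in the gate.

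Over all retained cells of a library, Cd200r1, Cd200r2 and Cd200r4 were higher in every p16-DTR library than in every control. Cd200r1 had 4.27, 5.61 and 6.32 CPM against 3.12, 3.19 and 3.62. Cd200r2 had 0.335, 0.321 and 0.375 against 0.119, 0.122 and 0.117, and Cd200r4 3.26, 4.40 and 4.67 against 1.56, 1.46 and 2.38. Such an order was seen in 8.58% of all genes. The log2 fold changes were 0.75 ± 0.15, 1.57 ± 0.17 and 1.24 ± 0.23 (SE). That of Cd200 was 0.061 ± 0.13 (SE). edgeR called 0 of 21630 genes here (0.0%), with 5043 at an unadjusted p under 0.05, and DESeq2 called 2769. The member values over whole libraries were among those that chose the members, so nothing is read from them.

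In such sums more cells of a type and more RNA per cell cannot be told apart. Cells in CD45-positive gates made up 29.5%, 31.7% and 37.6% of gated cells in the p16-DTR libraries and 23.4%, 27.8% and 27.0% in the controls, with no overlap. Within the pooled CD45-positive gates, Cd200r4 stood at 9.94, 14.0 and 12.3 CPM in the p16-DTR libraries and at 5.54, 5.79 and 8.81 in the controls. Cd200r1 had 12.7, 16.3 and 14.7 against 11.8, 12.4 and 10.8, and Cd200r2 0.948, 0.565 and 1.10 against 0.0765, 0.150 and 0.409. None of these ranges overlapped between the groups, and 5.06% of genes with at least 10 UMIs in these gates had every p16-DTR library above every control. Natural killer cells held 38.9% of the Cd200r2 UMIs in the p16-DTR libraries and 5.50% in the controls.

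The signalling partners of the receptors were tested in each of the 25 gates where they passed the filter, from 8 gates for Zap70 to 25 for Rasa1 and Nck1. Over all genes in these gates 0.508% of tests were called and 11.9% had an unadjusted p under 0.05 with edgeR, and DESeq2 called 1.91%. Of the inhibitory arm (Dok1, Dok2, Rasa1, Inpp5d and Nck1), edgeR called 0 of 99 gene-and-gate tests, 16 had an unadjusted p under 0.05 and DESeq2 called 1, with a median log2 fold change of 0.072. Of the activating arm (Tyrobp, Hcst, Fcer1g, Syk and Zap70), edgeR called 0 of 78, 13 had an unadjusted p under 0.05 and DESeq2 called 1, with a median of 0.14. Tyrobp, the adaptor DAP12, had 2562 ± 474 CPM in basophils, 1495 ± 51.4 in natural killer cells and 1298 ± 121 in alveolar macrophages (SD, n = 6), the 3 gates with the most Cd200r4. It was highest in neutrophils, at 3834 ± 237, and stood at 2478 ± 95.8 in classical monocytes, both gates with little Cd200r4 (1.83 ± 0.475 and 2.81 ± 0.987). Type 2 innate lymphoid cells, the highest gate for Cd200r1, had 5.61 ± 5.19 of Tyrobp and 120.0 ± 38.6 of Dok2, the adaptor of the inhibitory receptor. Hcst, also of the activating arm, had 191 ± 52.7 in these cells. It had 298 ± 46.6 in basophils, 317 ± 38.7 in natural killer cells and 42.1 ± 13.5 in alveolar macrophages. CD4 T cells had 219.7 ± 101 of Tyrobp, 240 ± 27.0 of Hcst and 56.4 ± 2.99 of Dok2.

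Of the 19 other protein-coding genes within 500 kb of a member, 15 passed the filter in a gate, and edgeR called 1 of 213 tests, against the 0.508% over all genes. DESeq2 called 9, against 1.91% over all genes, and 31 had an unadjusted p under 0.05. The call was Sidt1, a transmembrane gene implicated in RNA transport, which was lower in natural killer cells, at 209, 206 and 148 against 303, 316 and 305 CPM. Its log2 fold change was -0.73 ± 0.13 (SE, edgeR adjusted p 0.0235), with all 3 p16-DTR libraries lower. The mature and immature natural killer panels differed between the groups in this gate too, and their part in this call was not tested.

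The genes most like each member were found by the Pearson correlation of mean log2(CPM + 1) over 32 gates, a description over gates that share libraries. For Cd200 these were Npr1 (0.86), C130074G19Rik (0.82) and Slco2a1 (0.82). For Cd200r1 they were Baz1a (0.85), Arrb2 (0.84) and Rgs1 (0.84). Cd200r3 was closest to Gm42450 (0.99), Ms4a2 (0.99) and Prss34 (0.99), of which Ms4a2 and Prss34 are markers of the basophil gate. Cd200r4 was closest to Dok2 (0.88), Rab37 (0.86) and Nabp1 (0.85). For Cd200r2, which rests on few UMIs, the list was Gm43647 (0.91), Trdj1 (0.89) and Pvrig (0.86).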

How the data were processed

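Lung cells of 6 mice were profiled by droplet-based 3' RNA sequencing, 1 library per mouse. The deposited values are raw UMI counts per gene and barcode, made by the authors with Cell Ranger 8.0.1 on mm10, per the file headers and the submitters' processing notes. Libraries held 254200305 to 344421685 UMIs, with a median of 16587.5 to 18149 per barcode, and pairs of libraries shared 55 to 90 barcodes. Retained barcodes had 300 or more detected genes, 500 or more UMIs and a mitochondrial share of UMIs up to 15%. The number of markers a gate requires was set after marker detection was seen. No doublet caller was run, and cells that met several gates were left out.

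UMI counts were summed per library and gate. Gates with at least 20 cells in every library were tested with the quasi-likelihood test of edgeR 4.0.16 (R 4.3.3; filterByExpr, TMM factors, Benjamini-Hochberg adjustment over all genes of a gate, calls at an adjusted p under 0.05), after the script had been tested on simulated data. The SE of a log2 fold change is its absolute value divided by the square root of the F statistic of that test. Sums and shares were computed with numpy 2.4.6 and pandas 2.3.3. For the members no p-value and no count of calls is reported, by cell type, between cell groups (planned as sign-flip tests) or over whole libraries, because levels by library, cell type and group chose them. Their values are descriptions, and calls are reported over all genes and for the signalling list and the neighbours. Shares of cells were taken after thinning to 5000 UMIs, leaving out shallower cells. A limit for 0 counts is 3 counts over the total; limits cover counting error only. The members and gene lists were chosen with earlier results of these data known. The p-values set a group difference against the variation between libraries, in which mouse and library preparation cannot be told apart. Named by rule were the members, the signalling list, called protein-coding neighbours within 500 kb, panel sums and the 3 genes most correlated with each member. Values of the signalling list were given for called genes and for Tyrobp, Hcst and Dok2. The correlated genes were taken among those with a mean over the 6 libraries of at least 10 CPM (UMIs per 1000000) in a gate. Alternatives were DESeq2 1.42.0, other size factors, a pseudocount of 5, no thinning, no filter, stricter cells or gates, no top 5% of cells by UMIs, a replicate block and each library left out. The split of natural killer cells by panel genes, that split without control 2, the myeloid pool with basophils and the pooled descriptions of positive cells were chosen after seeing the data.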

Additional observations from a re-analysis of the deposited data

Results flagged for a closer look

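Cd200r1 was lower in interstitial macrophages of all 3 p16-DTR libraries than of all 3 controls (log2 ratio of the group means -0.734, on 102 and 57 UMIs) and higher in their natural killer gate (1.29). Cd200r2 was lower in their gamma-delta T cells (-0.897, on 8 and 14 UMIs) and higher in their natural killer gate (4.43). The thinned share of positive gamma-delta T cells had the opposite sign, 1.38% ± 1.41 against 0.882% ± 0.778 (SD, n = 3 each). For Cd200r1 the thinned shares of positive interstitial macrophages overlapped, at 7.46% ± 0.970 against 7.75% ± 3.84. By CPM every p16-DTR library was below every control in 1 cell type and above every control in the other. Over genes tested, 5.59% were lower in this way in interstitial macrophages, 5.44% in gamma-delta T cells and 8.8% higher in natural killer cells. Cd200r2 did not pass the filter in gamma-delta T cells, and in natural killer cells it passed through the p16-DTR libraries. Of genes with at least 20 UMIs in both gates, 28 of 9936 (0.282%) showed the first pair of orders and 32 of 10156 (0.315%) the second. The natural killer orders were among the values that chose the members. The gate pairs were named after their values were seen, so nothing is read from these shares. The difference between the cell types was not tested in either case.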

How the results depend on the processing

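Of all genes in the 24 gates, edgeR called 1298, against 8256 without the filter, 5018 with DESeq2 and 321 (without control 1) to 1106 (without p16-DTR 1) with 1 library left out. Over all retained cells it called 0, with 5043 at an unadjusted p under 0.05, and DESeq2 2769; the other settings and each library left out gave 0 with edgeR. In the natural killer gate the count was 68, against 382 without the filter, 121 with DESeq2, 169 without the top 5% of cells and 5 (without control 3) to 127 (without p16-DTR 2) with 1 library left out. The cause of these changes was not tested. Same-numbered libraries correlated at 0.124, -0.0209 and 0.131. The libraries p16-DTR 1 and p16-DTR 3 correlated best with their same-numbered controls, and p16-DTR 2 with control 3 (0.0446). These values are low and do not settle whether replicate numbers pair the libraries. With the replicate block, calls in the 24 gates were 881 and calls in natural killer cells 159.

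The log2 ratio of Cd200r2 in natural killer cells was 2.99 in cells with under 3 group 1 panel genes, a setting chosen after seeing the data, and 3.84 to 5.31 with 1 library left out. Without control 2 it was 2.40 in those cells. That of Cd200r1 was -0.41 in those cells and 0.050 without control 2, so its sign there rests on that library. The ratio of Cd200r3 in basophils ran from -0.12 to 0.015 with 1 library left out, and the fold change of Cd200 over all cells from -0.049 to 0.20, both near 0 and of either sign. With 1 library left out, the contrasts between cell groups ran from 5.78 to 6.03 for Cd200, 3.43 to 3.53 for Cd200r1, -0.023 to 0.51 for Cd200r2, 9.62 to 9.80 for Cd200r3 and -1.58 to -1.35 for Cd200r4. With basophils among the myeloid gates, added after seeing the data, that of Cd200r4 was -0.84. Without thinning, the shares of cells with a UMI were 98.8% and 99.2% for Cd200 in venous endothelium of p16-DTR and control libraries, 97.0% for Cd200r3 in p16-DTR basophils, 54.6% and 52.5% for Cd200r4 in natural killer cells and 0.754% for Cd200r2 in control natural killer cells.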
